A study of Mus musculus with 16 samples.

Results

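Long intergenic noncoding RNAs (lincRNAs) with detectable expression in cultured mouse macrophages are described here across 5 groups of RNA sequencing libraries. They are the genes that the GENCODE M21 annotation gives the biotype lincRNA on chromosomes 1 to 19 and whose scaled count (CPM, the count as a share of the library total, scaled to parts per 1e6) averaged at least 1 over all 16 libraries. The rule held 210 genes, of 5209 lincRNAs annotated on those chromosomes, of 4890 with an entry in the count tables and of 2136 with at least 1 count in any library. The tables list 54532 identifiers in all. Just inside the minimum lay 6030443J06Rik at 1.003 CPM and Gm45627 at 1.019 CPM, and just outside lay Gm26816 at 0.9963 CPM and Gm13067 at 0.972 CPM. The members were chosen by their measured mean level over all libraries and by no contrast between groups. However, 18 of the 210 reached the minimum only through the group in which they were highest. Their level in that group decided their place, so contrasts with it are not independent of the choice.

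The cells were macrophages grown from bone marrow with recombinant mouse M-CSF at 20 ng/mL over 7 days, then cultured for 24 h. The groups were TRAP1 KO cells in 70% medium conditioned by the mouse melanoma line YUMM1.7 (TRAP1 KO TCM, n = 4), wild-type cells in the same medium (WT TCM, n = 3), wild-type cells without it (WT naive, n = 3), cells of a JMJD3 conditional knockout in the conditioned medium (JMJD3 cKO TCM, n = 3) and wild-type cells of the JMJD3 line in that medium (JMJD3 WT TCM, n = 3). TRAP1 is a mitochondrial chaperone, and JMJD3 (gene Kdm6b) is a demethylase of lysine 27 of histone H3. The labels describe neither the TRAP1 allele, nor the Cre driver and the exons that the JMJD3 allele removes, nor the age or sex of the animals, nor whether the replicates are different animals or different cultures, so the p-values reflect only how these libraries spread, in part perhaps technically. Both genotypes were measured in conditioned medium only.

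Library totals ran between 15361604 and 22426820 counts. Trap1 averaged 0.0377 ± 0.0253 CPM in TRAP1 KO TCM and 67.7 ± 5.52 CPM in WT TCM (SD, n = 4 and 3), while Kdm6b averaged 25.6 ± 1.02 CPM in JMJD3 cKO TCM and 25.1 ± 1.69 CPM in JMJD3 WT TCM (SD, n = 3 each). Whole-gene counts of Kdm6b cannot show whether some of its exons were removed. All 8 macrophage markers were detected in every group, with sums of 24800 to 25100 CPM in TRAP1 KO TCM, 26000 to 26500 CPM in WT TCM, 16100 to 16300 CPM in WT naive, 12900 to 13300 CPM in JMJD3 cKO TCM and 16300 to 16600 CPM in JMJD3 WT TCM. The 8 markers of neutrophils and their precursors summed to 7.8 to 9.71 CPM in WT TCM, against 59.3 to 63.2 CPM in WT naive, and to 44.4 to 47.9 CPM in JMJD3 cKO TCM, against 30.8 to 34.5 CPM in JMJD3 WT TCM. The 7 fibroblast markers summed to 4.98 to 7.01 CPM in TRAP1 KO TCM and 0.166 to 0.454 CPM in WT TCM, with 3 of the 7 at 0 counts in WT TCM, against 14.2 to 15.4 CPM in WT naive. The 4 dendritic cell markers summed to 3.81 to 5.18 CPM in JMJD3 cKO TCM, 8.04 to 10.4 CPM in JMJD3 WT TCM and 0.887 to 1.43 CPM in WT TCM. The 4 T cell markers summed to at most 20.0 CPM in TRAP1 KO TCM, 28.3 to 29.9 CPM in WT TCM, with 3 of the 4 at 0 counts there, and 14.8 to 15.4 CPM in WT naive. They summed to 33.3 to 35.5 CPM in JMJD3 cKO TCM and 32.9 to 35.1 CPM in JMJD3 WT TCM, and the 4 B cell markers to 1.04 to 1.85 CPM in JMJD3 cKO TCM and 2.6 to 2.63 CPM in JMJD3 WT TCM. The part of any of these cells in the results below was not tested. Melanoma markers summed to at most 0.482 CPM in any library. In bulk RNA, fewer cells of a type and less RNA per cell cannot be told apart.

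A lincRNA is transcribed by RNA polymerase II like a messenger RNA, is often spliced and polyadenylated, and carries no long conserved reading frame. Some are structural parts of nuclear bodies, some are hosts whose introns or exons release microRNAs or small nucleolar RNAs, and many are transcribed near a coding gene and share its regulatory region. In macrophages, several are induced or repressed by inflammatory signals together with cytokine and interferon genes.

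The promoters of 5 members are shown as examples from the decreases described below, of which there were 41 in TRAP1 KO TCM and 35 in JMJD3 cKO TCM. They are 300 bases each from RefSeq (build GRCm38.p6), 250 bases before and 50 bases after the annotated start, printed 5′ to 3′ on the strand of the gene. Capitals mark matches to any of 7 motifs, searched on both strands. The PU.1 core was GAGGAA, the E-box CACGTG and the TATA motif TATAAA. The cAMP response element CRE was TGACGTCA. AP-1 was TGA, any base and TCA. The interferon response element was GAAA, any 2 bases and GAAA, and the NF-kB motif was GGG, any 2 bases and TTTCC. An AP-1 and a CRE match cannot overlap, an E-box can share its last letters with the start of either, and a PU.1 core can share letters with the interferon and NF-kB motifs.
Gm26510: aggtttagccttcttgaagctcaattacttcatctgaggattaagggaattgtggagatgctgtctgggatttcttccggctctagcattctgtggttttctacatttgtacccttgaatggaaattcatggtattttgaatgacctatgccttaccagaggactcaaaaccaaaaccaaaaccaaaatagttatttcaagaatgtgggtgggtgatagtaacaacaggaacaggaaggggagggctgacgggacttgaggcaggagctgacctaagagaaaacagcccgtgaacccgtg
5031425F14Rik: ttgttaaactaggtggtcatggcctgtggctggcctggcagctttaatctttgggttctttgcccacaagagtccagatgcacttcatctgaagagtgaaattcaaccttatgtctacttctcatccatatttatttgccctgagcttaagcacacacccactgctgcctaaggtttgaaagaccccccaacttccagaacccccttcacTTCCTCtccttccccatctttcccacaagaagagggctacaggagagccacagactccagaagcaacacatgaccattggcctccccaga
9330104G04Rik: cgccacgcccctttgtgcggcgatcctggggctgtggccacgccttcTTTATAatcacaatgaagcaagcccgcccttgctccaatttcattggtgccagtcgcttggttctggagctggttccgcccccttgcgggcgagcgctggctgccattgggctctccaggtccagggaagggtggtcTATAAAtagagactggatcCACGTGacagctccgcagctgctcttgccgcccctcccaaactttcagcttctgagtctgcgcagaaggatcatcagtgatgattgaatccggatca
AW112010: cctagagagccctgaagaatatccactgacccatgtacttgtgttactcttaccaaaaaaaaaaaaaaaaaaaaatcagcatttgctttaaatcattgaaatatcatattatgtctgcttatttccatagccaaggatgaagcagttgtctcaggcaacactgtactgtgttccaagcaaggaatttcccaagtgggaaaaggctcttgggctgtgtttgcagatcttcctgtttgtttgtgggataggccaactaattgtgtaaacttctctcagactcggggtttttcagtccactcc
Gm34643: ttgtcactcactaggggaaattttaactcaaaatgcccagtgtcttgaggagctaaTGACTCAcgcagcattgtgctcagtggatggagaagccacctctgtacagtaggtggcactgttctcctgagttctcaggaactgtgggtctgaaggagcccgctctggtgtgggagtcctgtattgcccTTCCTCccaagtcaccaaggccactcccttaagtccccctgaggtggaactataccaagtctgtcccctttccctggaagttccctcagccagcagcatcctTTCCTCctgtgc
They lie at chr17:70924949-70925248 on the minus strand (Gm26510), chr2:166447201-166447500 on the plus strand (5031425F14Rik), chr7:16874837-16875136 on the minus strand (9330104G04Rik), chr19:11050517-11050816 on the minus strand (AW112010) and chr14:103012625-103012924 on the plus strand (Gm34643). The first 3 belong to the members with the largest decreases in TRAP1 KO TCM, and the last 2 fell in both genotype comparisons. The RefSeq start of AW112010 lies 5241 bases from the start of the gene in M21, whereas those of the other 4 lie within 34 bases of it. Gm26510 and AW112010 held no match to any of the 7 motifs as written above. Other spellings of these motifs, such as wider forms of the NF-kB motif, were not searched. The promoter of 5031425F14Rik held 1 PU.1 core, that of 9330104G04Rik held 1 E-box and 2 TATA matches, and that of Gm34643 held 1 AP-1 match and 2 PU.1 cores. Of the 210 members, 102 had a RefSeq promoter by symbol. An AP-1 match was present in 14.7% of these 102 against 7.93% of the 27025 promoters in the table, a PU.1 core in 38.2% against 28.3%, and an E-box in 12.7% against 7.24%. The shares were 3.92% against 3.49% for the interferon element, 3.92% against 1.88% for CRE, 12.7% against 14.2% for TATA and 2.94% against 1.62% for NF-kB. The median GC content was 52.8% in the members' promoters and 52.7% in all. The 27025 promoters were taken whatever the expression of their genes, whereas the 102 belong to expressed genes. The shares are not matched for this and were not tested. A match is a description of letters and not a site.

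Mir142hg and Mir17hg, both members, are the host transcripts of microRNA genes, and the mature sequences that lie within them are shown to identify what these transcripts carry. They are from RefSeq (GRCm38.p6), with the seed, bases 2 to 8, in capitals.
miR-142a-5p: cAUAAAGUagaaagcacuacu
miR-142a-3p: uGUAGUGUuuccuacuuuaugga
miR-17-5p: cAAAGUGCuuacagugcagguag
miR-20a-5p: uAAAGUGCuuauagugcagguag
miR-18a-5p: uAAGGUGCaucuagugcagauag
miR-19a-3p: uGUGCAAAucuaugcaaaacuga
miR-19b-3p: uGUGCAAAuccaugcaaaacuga
miR-92a-3p: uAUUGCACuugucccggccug
The first 2 lie in Mir142hg on chromosome 11, and the other 6 in Mir17hg on chromosome 14. The seed AAAGUGC is shared by miR-17-5p and miR-20a-5p, and GUGCAAA by miR-19a-3p and miR-19b-3p. The libraries measured the hosts and not the mature microRNAs.

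The members were mostly unnamed and low. Of the 210, 120 carried a Gm number, 60 a Rik name and 30 another name. Their median of the mean level was 2.58 CPM, against 31.2 CPM for the 10544 autosomal protein-coding genes that met the same minimum, and 150 of them lay under 5 CPM. Their median exon length was 2362 bases (range 254 to 20771), against 4560 for the coding genes, and 30 had a single annotated exon. Another annotated gene overlapped 110 members, on the opposite strand in 86 and on the same strand in 47, and the overlapping gene was coding in 37 and 14 of these. No source used here gives the strand setting of the counting, so reads of overlapping genes cannot be told apart. The spread between replicates was alike in the members and in coding genes of 1 to 5 CPM, with median coefficients of variation of 12.2% to 15.2% and 13.8% to 16.8% over the 5 groups.

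A few genes held most of the counts. Malat1 and Neat1 took 66.5% of all counts of the 210 members, and the 8 most abundant members took 82.3%. Per kilobase of exon, the order was led by Malat1, a nuclear speckle RNA, at 360.4 CPM per kilobase, AW112010 at 154.6, Gm36161 at 86.3, Neat1, the scaffold of paraspeckles, at 49.1, and 2900097C17Rik at 47.9. 2900097C17Rik is the mouse Norad, an RNA that binds Pumilio proteins, and it had the lowest coefficient of variation of all members in 4 of the 5 groups, at 0.333% over the 4 TRAP1 KO TCM libraries and 0.39% over the 3 JMJD3 WT TCM libraries. Gm26917, at 42.7 CPM per kilobase, lies within a copy of the ribosomal RNA precursor on chromosome 17, and these libraries were depleted of ribosomal RNA.

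The summed level of the members differed between the groups. It was 4162 to 4387 CPM in TRAP1 KO TCM, 4337 to 4610 CPM in WT TCM and 5110 to 5235 CPM in WT naive. It was 6095 to 6292 CPM in JMJD3 cKO TCM and 6713 to 6938 CPM in JMJD3 WT TCM. Only the ranges of TRAP1 KO TCM and WT TCM overlapped. Without Malat1 and Neat1 the sums were 1575 to 1612 CPM in TRAP1 KO TCM, 1549 to 1596 CPM in WT TCM, 1777 to 1808 CPM in WT naive, 1803 to 1842 CPM in JMJD3 cKO TCM and 2130 to 2182 CPM in JMJD3 WT TCM. These levels use TMM-scaled totals, and the scaling factors were 1.03 to 1.04 in the TRAP1 KO and wild-type groups, 0.968 to 0.975 in JMJD3 cKO TCM and 0.912 to 0.921 in JMJD3 WT TCM. On plain totals the members took 0.433% to 0.457% of the counts in TRAP1 KO TCM, 0.445% to 0.473% in WT TCM, 0.531% to 0.545% in WT naive, 0.590% to 0.610% in JMJD3 cKO TCM and 0.612% to 0.639% in JMJD3 WT TCM.

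**Figure D1:**
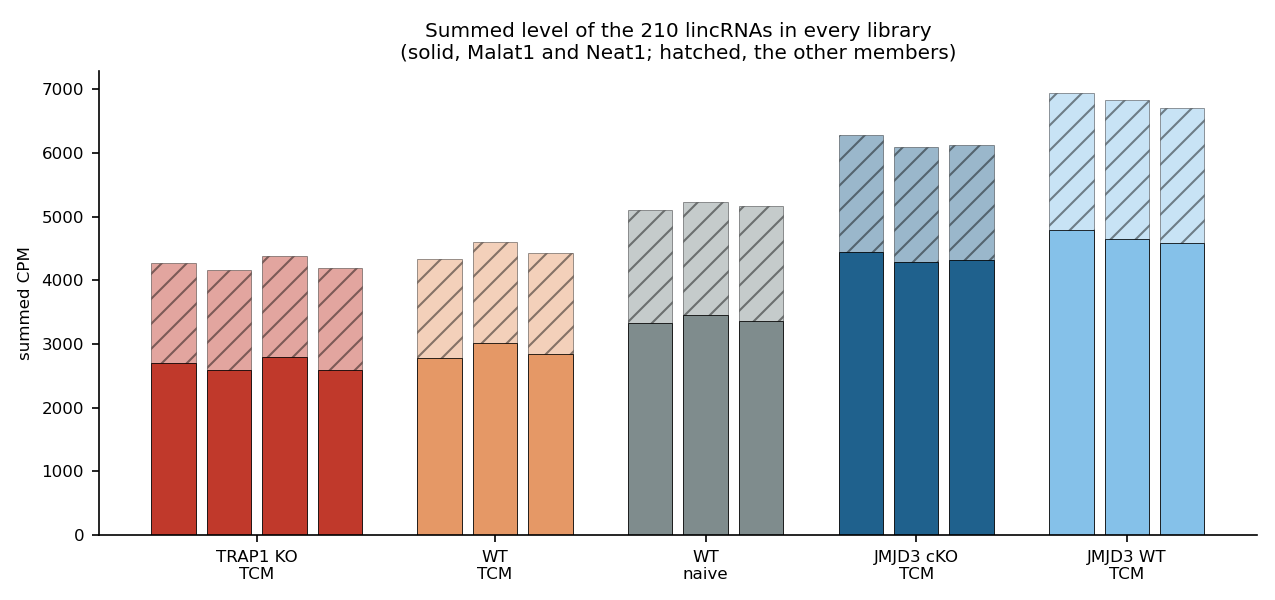
Summed level of the 210 lincRNAs in each of the 16 libraries, in CPM on TMM-scaled totals, with Malat1 and Neat1 solid and the other 208 hatched. The JMJD3 WT TCM libraries are highest at 6713 to 6938 CPM, and the TRAP1 KO TCM and WT TCM libraries lie lowest at 4162 to 4610 CPM.

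The highest group mean was in JMJD3 WT TCM for 76 members, in WT naive for 50, in TRAP1 KO TCM for 43, in WT TCM for 23 and in JMJD3 cKO TCM for 18. Counts were tested with edgeR, fitted over all genes, and a member was called at an adjusted p under 0.05. Of the 210, 91 were called in none of the comparisons of medium, TRAP1 and JMJD3, 75 in 1, 31 in 2 and 13 in all 3.

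**Figure D2:**
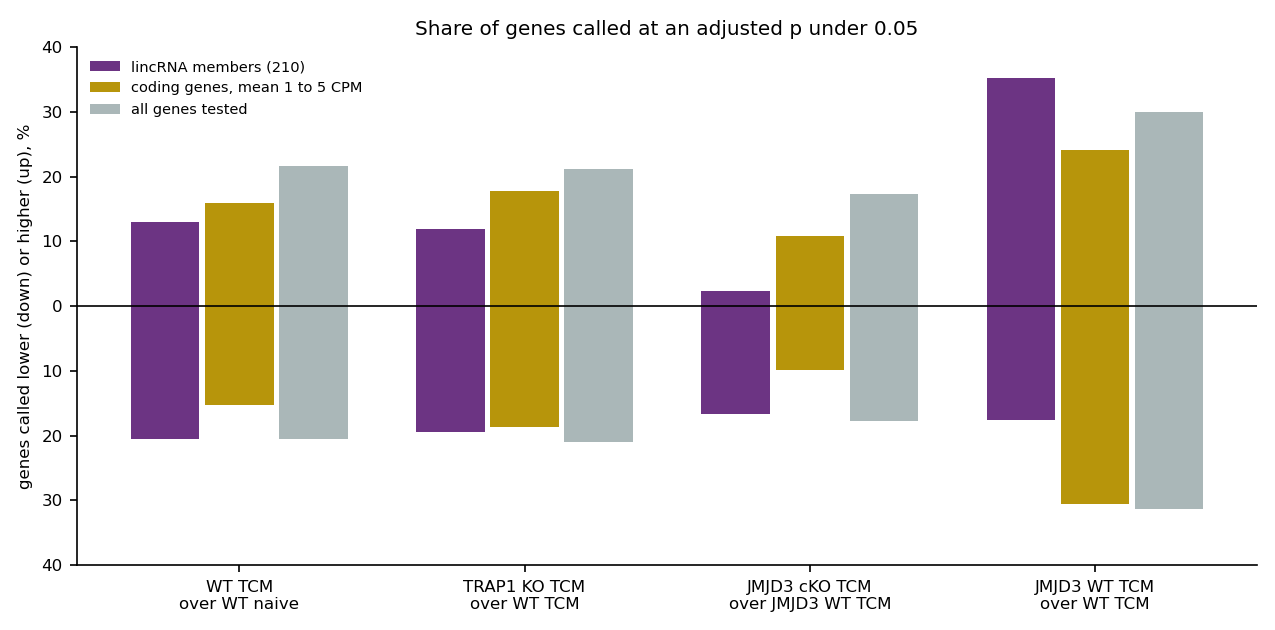
Percent of genes called higher (above 0) or lower (below 0) at an adjusted p under 0.05 in 4 comparisons, for the 210 lincRNAs, for autosomal coding genes of 1 to 5 CPM and for all genes tested. In JMJD3 cKO TCM over JMJD3 WT TCM, 2.38% of the lincRNAs were called higher and 16.7% lower, against 17.3% and 17.8% of all genes.

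Conditioned medium was set against no conditioned medium in wild-type cells. More members fell than rose in WT TCM relative to WT naive, but the share that fell was near that of all genes. Of the 210, 27 (12.9%) rose and 43 (20.5%) fell. By at least 2-fold, 5 were higher and 15 lower, and the median log2 fold change was -0.16. Over all 14078 genes tested, 42.2% were called, 21.6% higher and 20.6% lower, with 2.41% higher and 2.86% lower by at least 2-fold, and the median was -0.01. Among coding genes of 1 to 5 CPM, 15.9% were higher and 15.3% lower, against 10.7% and 15.3% of the 150 members in that range. Of these 1413 coding genes, 81 were higher and 93 lower by at least 2-fold, against 4 and 10 of these 150 members. The groups did not overlap for 91 members, where 50.1% of all genes tested did not overlap. Without the 18 members that owe their place to a single group, 24 rose and 41 fell.

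Neat1 was at 814, 871 and 854 CPM in WT TCM, against 1134, 1131 and 1158 CPM in WT naive. All WT TCM libraries lay below all WT naive libraries, and Neat1 fell (log2 fold change -0.43, SE 0.02, edgeR adjusted p = 6.6e-37). Malat1 was at 1974, 2143 and 1992 CPM in WT TCM, against 2199, 2327 and 2207 CPM in WT naive. Its ranges did not overlap, but the change did not pass the test (-0.14, SE 0.05, adjusted p = 0.071). It passed with DESeq2 (adjusted p = 0.036), in a fit of all 16 libraries (0.035), without the robust option (6e-05) and without WT TCM replicate 2 (-0.18, 0.045).

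AW112010 is known from mouse macrophages as a transcript induced by interferon gamma and bacterial lipopolysaccharide, and a protein translated from it has been described. It was at 26.1, 27.2 and 28.7 CPM in WT TCM, against 64.2, 65.4 and 67.5 CPM in WT naive. The groups did not overlap and the gene fell (log2 fold change -1.27, SE 0.05, adjusted p = 8.9e-38). Gm42047 was at 45.2, 48.7 and 49.8 CPM in WT TCM, against 153, 155 and 156 CPM in WT naive, and fell by 1.70 on the log2 scale (SE 0.04, adjusted p = 1.4e-58).

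The largest decreases in WT TCM were those of Zfp469, Gm10419, Gm14221, Gm37168, Gm42047 and Gm45627, at -2.15 to -1.58. Zfp469, a single-exon entry that bears the symbol of a zinc finger gene, was at 0.606, 0.386 and 0.254 CPM in WT TCM, against 1.93, 1.89 and 1.93 CPM in WT naive. Gm10419 was at 3.43, 4.14 and 3.42 CPM in WT TCM, against 14.1, 12.3 and 12.6 CPM in WT naive (change of -1.83 on the log2 scale, SE 0.13, adjusted p = 3.8e-22). Gm42517, a coding gene that overlaps Gm10419 on the opposite strand, changed by -1.82 (adjusted p = 2.0e-18), so part of this signal may be shared between them. Gm14221 was at 2.88, 2.98 and 2.22 CPM in WT TCM, against 10.8, 7.35 and 9.66 CPM in WT naive (-1.77, SE 0.16, adjusted p = 1.7e-17). For each of these genes the WT TCM libraries all lay below the WT naive libraries. Gm45627 was among the 18 members that met the minimum through 1 group, here WT naive.

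The largest increases were those of 4933424M12Rik, Gm32098, Gm26522, Gm44751, 5033406O09Rik and Gm20735, at 1.78 to 0.99. 5033406O09Rik was at 6.11, 5.57 and 6.97 CPM in WT TCM, against 2.90, 3.27 and 2.88 CPM in WT naive (change of 1.03 on the log2 scale, SE 0.15, adjusted p = 8.9e-09). Gm26522 and Gm44751 both neighbour Ctsc, which encodes cathepsin C. Gm26522 overlaps it on the opposite strand and was at 2.62, 1.82 and 1.77 CPM in WT TCM, against 0.460, 1.20 and 0.943 CPM in WT naive (1.25, SE 0.27, adjusted p = 5.8e-05). Gm44751 lies 590 bases away and was at 3.28, 3.92 and 2.85 CPM in WT TCM, against 1.33, 1.50 and 1.46 CPM in WT naive (1.23, SE 0.21, adjusted p = 4.6e-07). Ctsc itself rose by 0.71 on the log2 scale. The libraries of the 2 groups did not overlap for any of these 3 members. 4933424M12Rik met the minimum through WT TCM alone.

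Gm14005, the mouse Morrbid, is a regulator of Bcl2l11 in short-lived myeloid cells. It was at 4.19, 3.59 and 4.50 CPM in WT TCM, against 2.67, 3.35 and 2.83 CPM in WT naive, and rose (log2 fold change 0.46, SE 0.17, adjusted p = 0.021). The call was lost without WT naive replicate 1 (0.40, adjusted p = 0.088) or 3 (0.43, 0.062) and without WT TCM replicate 1 (0.44, 0.065) or 3 (0.40, 0.093). Bcl2l11, a pro-apoptotic gene that lies 15772 bases away, changed by -0.24 (adjusted p = 2.9e-08).

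By list, 1 of the 5 members under the heading nuclear body RNAs rose (1700020I14Rik, the mouse Cyrano, at 0.12) and 1 fell (Neat1). The heading is a label and does not place each of these RNAs in a nuclear body. Of the 6 hosts of small RNAs 0 were called, by edgeR or by DESeq2, and 0 had an unadjusted edgeR p under 0.05. Of the 2 p53 and growth lincRNAs 0 were called by either tool, with 1 at an unadjusted edgeR p under 0.05. The summed neutrophil markers moved with this comparison as given above, with 7 of 7 tested markers lower in WT TCM, and the 4 tested fibroblast markers were lower too. Their part in the lincRNA changes was not tested.

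**Figure D3:**
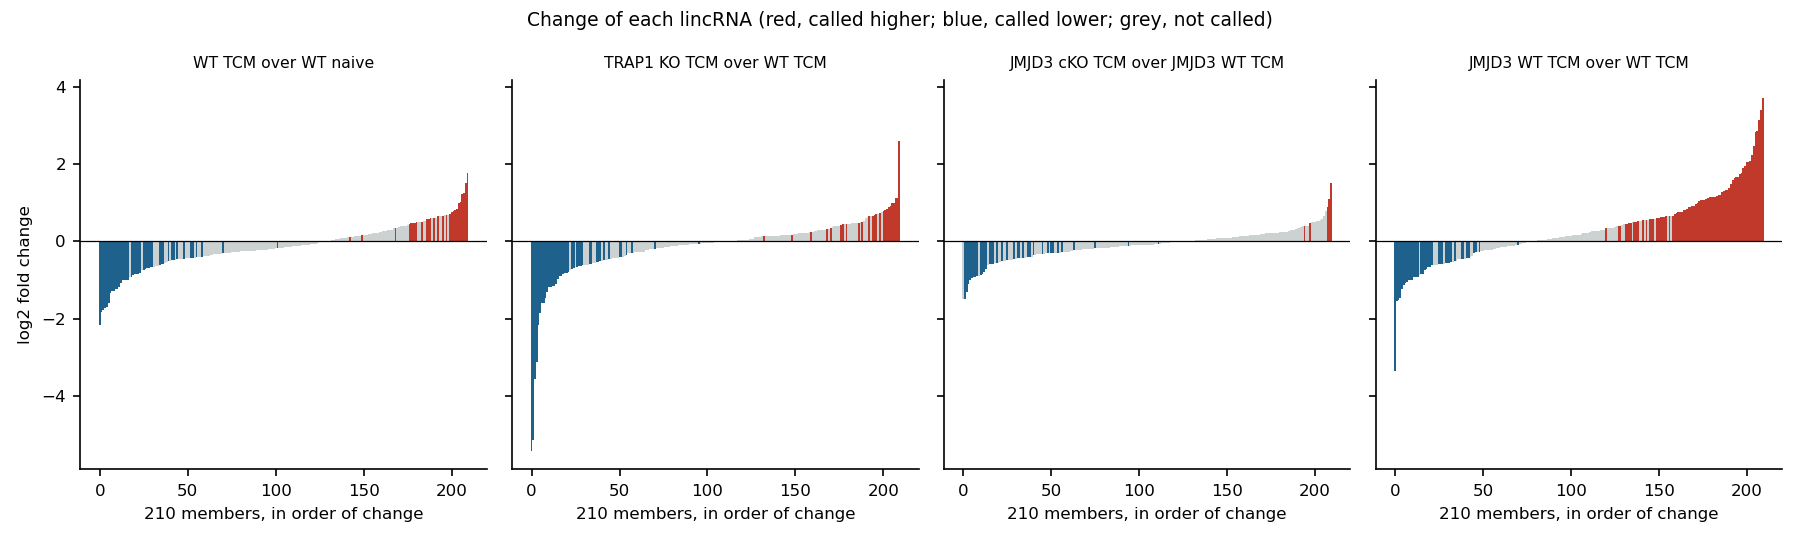
Log2 fold change of each of the 210 lincRNAs in 4 comparisons, in order of change, with members called higher in red, called lower in blue and not called in grey. Changes run between -2.15 and 1.78 for WT TCM over WT naive, -5.43 and 2.61 for TRAP1 KO TCM over WT TCM, -1.50 and 1.52 for JMJD3 cKO TCM over JMJD3 WT TCM, and -3.34 and 3.72 for JMJD3 WT TCM over WT TCM.

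TRAP1 knockout cells were set against wild-type cells in the same conditioned medium. A small group of members was almost lost in TRAP1 KO TCM, while the median over all members was -0.02. Of the 210, 25 (11.9%) rose and 41 (19.5%) fell, with 3 higher and 15 lower by at least 2-fold. Over all 14078 genes tested, 42.2% were called, 21.2% higher and 21.0% lower, with 2.85% higher and 2.73% lower by at least 2-fold. Among coding genes of 1 to 5 CPM, 17.8% were higher and 18.7% lower, against 10.0% and 16.7% of the 150 members in that range. Of these 1413 coding genes, 94 were higher and 102 lower by at least 2-fold, against 3 and 13 of these 150 members. The groups did not overlap for 69 members, and for 43.0% of all genes. Without the 18 members that owe their place to a single group, 23 rose and 38 fell, and 12 fell by at least 2-fold.

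Gm26510 (chromosome 17, bases 70874349 to 70924996, minus strand, GRCm38) had 5, 2, 1 and 0 counts in the TRAP1 KO TCM libraries, against 90, 82 and 80 counts in the WT TCM libraries. This is 0.268, 0.0951, 0.0497 and 0 CPM in TRAP1 KO TCM and 4.54, 4.52 and 5.07 CPM in WT TCM. It fell by 5.43 on the log2 scale (SE 0.32, edgeR adjusted p = 1.2e-27), and in the other 3 groups every library lay between 3.96 and 6.58 CPM. Tgif1, the nearest expressed coding gene at 20803 bases, changed by -0.08 (adjusted p = 0.12).

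5031425F14Rik (chromosome 2, bases 166447451 to 166459232, plus strand) had 6, 2, 1 and 3 counts in TRAP1 KO TCM, against 123, 97 and 85 counts in WT TCM. Its levels were 0.321, 0.0951, 0.0497 and 0.162 CPM in TRAP1 KO TCM and 6.21, 5.35 and 5.39 CPM in WT TCM (log2 fold change -5.14, SE 0.28, adjusted p = 1.4e-29). Prex1, a Rac exchange factor and the nearest expressed coding gene at 107110 bases, changed by -0.18 (adjusted p = 2.9e-13). 9330104G04Rik had 3, 3, 2 and 1 counts in TRAP1 KO TCM, against 30, 27 and 20 counts in WT TCM (-3.56, SE 0.43, adjusted p = 1.6e-11). Prkd2, a kinase gene 883 bases away, did not pass the test (0.20, adjusted p = 0.052). 9330104G04Rik met the minimum through WT naive alone. For these 3 genes every TRAP1 KO TCM library lay far below every library of the other 4 groups.

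Gm26637 (chromosome 17) was at 0.696, 0.380, 0.795 and 0.701 CPM in TRAP1 KO TCM, against 5.40, 6.84 and 4.63 CPM in WT TCM (log2 fold change -3.12, SE 0.21, adjusted p = 1.3e-24). It overlaps the sulfotransferase gene Sult6b1 on the opposite strand, which changed by -2.78 (adjusted p = 1.1e-19), and these genes cannot be separated without the strand setting. 1700087I21Rik was at 0.214, 0.285, 0.298 and 0.486 CPM in TRAP1 KO TCM and 1.31, 1.38 and 1.71 CPM in WT TCM (-2.16, SE 0.36, adjusted p = 3.3e-07). Gm38335 was at 0.321, 0.190, 0.149 and 0.324 CPM in TRAP1 KO TCM and 1.11, 1.16 and 0.380 CPM in WT TCM (-1.86, SE 0.44, adjusted p = 0.00027). Its neighbour Fabp5, a fatty acid binding protein gene 5704 bases away, also fell (-0.98, adjusted p = 9.2e-07). The 2 groups did not overlap for these genes, although WT TCM replicate 3 came near the knockout libraries for Gm38335, which met the minimum through JMJD3 cKO TCM alone.

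Promoter sequences of the 3 genes with the largest decreases, shown above, share none of the 7 motifs: 1 has a PU.1 core, 1 has an E-box and TATA matches, and Gm26510 has none. Gm26510 lies on chromosome 17, as does Gm26637, while 5031425F14Rik lies on chromosome 2 and 9330104G04Rik on chromosome 7. Trap1 lies on chromosome 16, and any part of location in these decreases was not tested.

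Among the increases, 4930480K23Rik stood highest. It was at 2.94, 2.62, 2.53 and 3.35 CPM in TRAP1 KO TCM, against 0.858, 0.110 and 0.380 CPM in WT TCM (change of 2.61 on the log2 scale, SE 0.31, adjusted p = 1.4e-11). It met the minimum through TRAP1 KO TCM alone, as did Gm15675. Gm37233 was at 32.5, 29.9, 28.8 and 30.7 CPM in TRAP1 KO TCM, against 17.11, 15.67 and 15.97 CPM in WT TCM (0.91, SE 0.07, adjusted p = 4.6e-21). Every TRAP1 KO TCM library lay above every other library of the series for Gm37233. Gm15675, 1836 bases from the complement regulator gene Cd55, was at 2.94, 2.04, 3.08 and 3.13 CPM in TRAP1 KO TCM and 1.51, 1.21 and 1.08 CPM in WT TCM (1.13, SE 0.23, adjusted p = 2.7e-05), and Cd55 rose by 1.72 (adjusted p = 7.5e-38). 1700029N11Rik, Gm26779 and CT030636.1 rose by 1.13, 0.99 and 0.99.

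Of the genes that fell with conditioned medium, AW112010 was lower still in TRAP1 KO TCM and Gm42047 was not. AW112010 was at 19.2, 19.6, 18.4 and 18.5 CPM in TRAP1 KO TCM, against 26.1, 27.2 and 28.7 CPM in WT TCM (log2 fold change -0.52, SE 0.06, adjusted p = 1.7e-12). Gm42047 was at 63.8, 69.7, 62.3 and 65.9 CPM in TRAP1 KO TCM, against 45.2, 48.7 and 49.8 CPM in WT TCM (0.46, SE 0.04, adjusted p = 5.6e-18). The groups did not overlap for either. The medium and TRAP1 comparisons share the WT TCM libraries, so their changes are given side by side and are not independent.

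Snhg6, the host of a small nucleolar RNA, was at 6.64, 7.61, 5.02 and 7.07 CPM in TRAP1 KO TCM, against 12.56, 12.03 and 12.49 CPM in WT TCM. All TRAP1 KO TCM libraries lay below every other library of the series, and Snhg6 fell (log2 fold change -0.90, SE 0.11, adjusted p = 9.7e-12). It was the 1 gene called by edgeR and by DESeq2 among the 6 small-RNA hosts that were members. Of the 5 members on the list headed nuclear body RNAs, Norad and Pvt1 rose and Neat1 and Cyrano fell. Norad was at 262.4, 262.4, 264.0 and 263.9 CPM in TRAP1 KO TCM, against 228.7, 235.4 and 238.0 CPM in WT TCM (0.18, SE 0.02, adjusted p = 3.8e-11). Pvt1, which lies beside Myc, was at 6.59, 6.04, 6.81 and 7.18 CPM in TRAP1 KO TCM, against 4.09, 4.03 and 6.09 CPM in WT TCM, and these ranges overlapped (0.51, SE 0.13, adjusted p = 0.00093). Neat1 changed by -0.06 (adjusted p = 0.0013) and was not called without WT TCM replicate 2 (-0.04, adjusted p = 0.061). Malat1 did not pass the test (-0.12, SE 0.05, adjusted p = 0.091), although it did with DESeq2 (adjusted p = 0.04), in a fit of all 16 libraries (0.038), without the robust option (0.00018) and without TRAP1 KO TCM replicate 3 (-0.15, 0.033). Trp53cor1, known as lincRNA-p21, lies 11797 bases from its neighbour Cdkn1a. It was at 3.37, 4.33, 3.78 and 3.35 CPM in TRAP1 KO TCM and 2.52, 3.92 and 2.73 CPM in WT TCM and was not called, while Cdkn1a rose by 0.92 (adjusted p = 4.6e-62). Of the 7 tested neutrophil markers 1 was higher and 2 were lower in TRAP1 KO TCM, and 3 of 4 tested fibroblast markers were higher. Their part in the lincRNA changes was not tested.

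JMJD3 cKO cells were set against wild-type cells of the same line, both in conditioned medium. Calls were nearly all decreases: few members rose, and the share that fell was near that of all genes. Of the 210 members, 5 (2.38%) rose and 35 (16.7%) fell in JMJD3 cKO TCM. By at least 2-fold, 2 were higher and 3 lower, and the median log2 fold change was -0.08. Called members had a median absolute log2 fold change of 0.49, against 0.28 for all called genes. At 1 to 5 CPM these medians were close, at 0.86 for called members and 0.82 for called coding genes. Over all 13476 genes tested, 35.1% were called, 17.3% higher and 17.8% lower, with 0.839% higher and 1.37% lower by at least 2-fold and a median of 0.01. Among coding genes of 1 to 5 CPM, 10.8% were higher and 9.81% lower, against 2.67% and 8.67% of the members in that range, and of the 60 members at 5 CPM or more 1 was higher and 22 were lower. With library totals alone in place of TMM scaling, which moved the median of all genes by 0.081, 11 members were called higher and 28 lower. Without the 18 members that owe their place to a single group, 4 rose and 35 fell. The groups did not overlap for 58 members, and for 44.9% of all genes. Among autosomal genes of other noncoding classes at 1 CPM or more, 3 of 201 antisense genes rose and 27 fell, and 8 of 166 genes of the class TEC (entries that the annotation marks as awaiting experimental tests) rose and 14 fell. Of 117 genes of the class processed transcript 11 rose and 12 fell, and of 388 processed pseudogenes 37 rose and 24 fell. With library totals alone these counts were 5 and 19 of the antisense genes, 9 and 13 of the class TEC, 17 and 9 of the processed transcripts and 66 and 19 of the processed pseudogenes.

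AW112010 was at 196, 185 and 177 CPM in JMJD3 cKO TCM, against 334.5, 386.6 and 355.5 CPM in JMJD3 WT TCM. The groups lay far apart, and AW112010 fell (log2 fold change -0.94, SE 0.05, edgeR adjusted p = 2.3e-07). Its nearest expressed coding gene, Ccdc86, lies 98346 bases away and changed by -0.19 (adjusted p = 0.0020). Gm34643 was at 8.09, 8.14 and 8.65 CPM in JMJD3 cKO TCM, against 14.7, 16.4 and 16.7 CPM in JMJD3 WT TCM (-0.93, SE 0.10, adjusted p = 4.0e-10). Acod1, which encodes the enzyme that makes itaconate in activated macrophages, lies 22520 bases from Gm34643 and fell by 1.70 (adjusted p = 6.7e-34).

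Gm11216 was at 4.23, 4.70 and 3.98 CPM in JMJD3 cKO TCM, against 12.8, 11.5 and 12.3 CPM in JMJD3 WT TCM (log2 fold change -1.50, SE 0.12, adjusted p = 1.2e-13). Its neighbour Tnc, the gene of the matrix protein tenascin C, lies 28518 bases away and changed by -3.36 (adjusted p = 2.6e-08). Gm12589 was at 3.49, 3.08 and 2.79 CPM in JMJD3 cKO TCM, against 7.93, 7.63 and 7.47 CPM in JMJD3 WT TCM (-1.30, SE 0.15, adjusted p = 1.8e-09). Gm47242 was at 6.45, 8.61 and 8.61 CPM in JMJD3 cKO TCM, against 16.2, 16.5 and 14.6 CPM in JMJD3 WT TCM (-0.99, SE 0.11, adjusted p = 6.2e-10). For these 3 genes no library of one group came near the other group. Zfp469 changed by -0.86 (adjusted p = 0.0026) and 4930471E19Rik, whose nearest expressed coding gene, 156203 bases away, is the chromatin protein gene Hmga2, by -0.91 (adjusted p = 0.00017), with Hmga2 at -0.73. Gm29340 fell by 1.09 (adjusted p = 0.0069), and was no longer called without JMJD3 cKO TCM replicate 1 (-0.80, adjusted p = 0.064).

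The 5 increases were Gm14221, 4933424M12Rik, C130083M11Rik, Gm14461 and A130077B15Rik. Gm14221 was at 1.96, 2.03 and 1.97 CPM in JMJD3 cKO TCM, against 0.805, 0.971 and 1.02 CPM in JMJD3 WT TCM (change of 1.09 on the log2 scale, SE 0.29, adjusted p = 0.0026). It was the only 1 of the 5 called under every alternative run. 4933424M12Rik had 12, 11 and 15 counts in JMJD3 cKO TCM, against 2, 3 and 5 counts in JMJD3 WT TCM (1.52, SE 0.54, adjusted p = 0.024), and lost its call without JMJD3 WT TCM replicate 1 (adjusted p = 0.13) or 2 (0.065). C130083M11Rik (0.89, adjusted p = 0.031) lost its call without any single one of JMJD3 WT TCM replicates 2 and 3 and JMJD3 cKO TCM replicates 1 and 3, with adjusted p of 0.065 to 0.29. Gm14461 (0.47, 0.031) lost it without JMJD3 WT TCM replicate 1 or 2 or JMJD3 cKO TCM replicate 1 or 3, with adjusted p of 0.054 to 0.17. A130077B15Rik (0.40, 0.019) lost it without JMJD3 WT TCM replicate 1 or JMJD3 cKO TCM replicate 1 or 3, with adjusted p of 0.060 to 0.14.

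The 2 abundant nuclear RNAs changed little in size. Neat1 was at 1089, 1105 and 1133 CPM in JMJD3 cKO TCM, against 1267, 1268 and 1253 CPM in JMJD3 WT TCM, and the groups did not overlap (log2 fold change -0.18, SE 0.02, adjusted p = 3.8e-08). Malat1 was at 3362, 3186 and 3188 CPM in JMJD3 cKO TCM, against 3523, 3388 and 3330 CPM in JMJD3 WT TCM, which overlap (-0.07, SE 0.02, adjusted p = 0.023). With library totals alone the change of Malat1 was 0.01 (adjusted p = 0.72), and without JMJD3 WT TCM replicate 1 (-0.05, 0.10) or JMJD3 cKO TCM replicate 2 (-0.05, 0.16) or 3 (-0.06, 0.16) it was not called. Of the 6 small-RNA hosts 0 were called by edgeR or DESeq2, with 1 at an unadjusted edgeR p under 0.05. Of the 4 macrophage and inflammation lincRNAs, AW112010 and Gm26809 fell. Gm26809 was at 6.98, 6.99 and 6.73 CPM in JMJD3 cKO TCM, against 11.6, 9.22 and 10.3 CPM in JMJD3 WT TCM (-0.59, SE 0.12, adjusted p = 7.9e-05), and the groups did not overlap. Of the 6 tested neutrophil markers 4 were higher and 1 was lower in JMJD3 cKO TCM, and 1 of 2 tested dendritic cell markers was lower. Their part in the lincRNA changes was not tested.

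The share of called members with a coding neighbour called in the same direction differed between the comparisons. For each member, the neighbour was taken as the nearest autosomal coding gene of at least 1 CPM on either strand, at a median distance of 5381 bases. Of the 40 members called in JMJD3 cKO TCM, 25 (62.5%) had a neighbour called in the same direction and 2 (5.0%) a neighbour called in the opposite direction. For called coding genes and their own nearest coding genes these shares were 26.2% and 16.2%. The same-direction neighbours were 5 of 7 where the pair overlaps, 6 of 10 where it is apart by up to 5000 bases, 8 of 12 up to 50000 bases and 6 of 11 beyond that. The 2 pairs of opposite direction were A130077B15Rik with Ppm1h (0.40 and -0.14) and Gm43351 with the ribosomal protein gene Rpl34 (-0.59 and 0.17), named here for that count after their values were seen. For the 70 members called with conditioned medium the shares were 38.6% the same and 20.0% opposite, against 28.7% and 20.6% for coding genes. For the 66 members called in TRAP1 KO TCM they were 36.4% and 25.8%, against 29.8% and 20.0%. For the 111 called between the wild-type groups they were 62.2% and 15.3%, against 42.5% and 29.0%. Neighbouring genes share reads where they overlap, and the members were compared with coding genes of higher levels, so these shares are a description and were not tested.

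**Figure D4:**
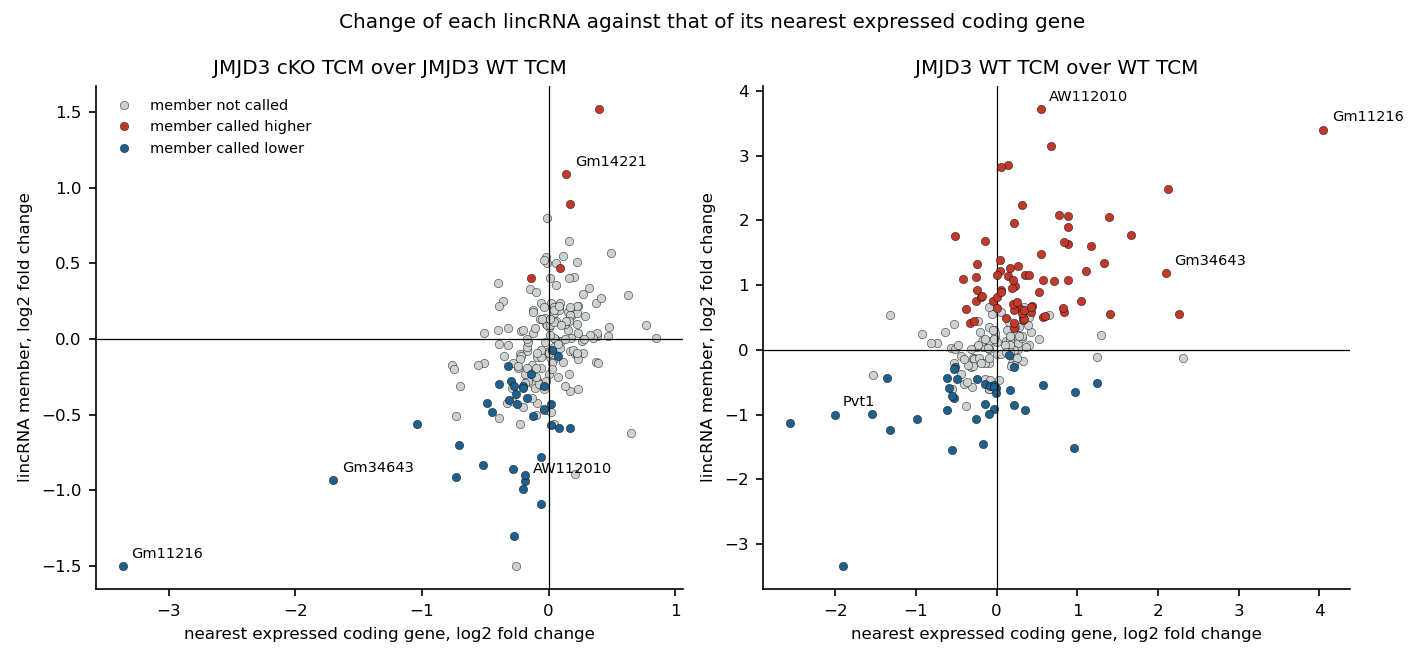
Log2 fold change of each lincRNA (vertical) against that of its nearest expressed coding gene (horizontal) in JMJD3 cKO TCM over JMJD3 WT TCM and in JMJD3 WT TCM over WT TCM, coloured by the call of the lincRNA. Called decreases in the JMJD3 cKO panel lie mostly to the left of 0, with Gm11216 at -1.50 beside Tnc at -3.36 and Gm34643 at -0.93 beside Acod1 at -1.70.

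The TRAP1 and JMJD3 comparisons share no library and could be set side by side. Of the 210 members, 13 were called lower in both, 1 higher in both (C130083M11Rik), 5 higher in TRAP1 KO TCM and lower in JMJD3 cKO TCM, and 0 the other way round. None of these 5 kept its called decrease in JMJD3 cKO TCM under every setting and without any library. C130083M11Rik was not called in TRAP1 KO TCM without WT TCM replicate 1 (0.61, adjusted p = 0.083), and 4 of the 6 JMJD3 libraries each decide its other call, as given above. The 13 are 31.7% of the 41 that fell without TRAP1 and 37.1% of the 35 that fell in JMJD3 cKO TCM, where 16.7% of all 210 members fell in JMJD3 cKO TCM and 19.5% fell in TRAP1 KO TCM, and this overlap was not tested. They include Neat1 (not called in TRAP1 KO TCM without WT TCM replicate 2, adjusted p = 0.061), AW112010, Gm10419, Gm34643 and 4930471E19Rik. Of the 13, only AW112010, Gm10419, Gm34643 and 2310001H17Rik kept both calls under every setting and without any library. 2310001H17Rik is named here for that count after its values were seen. The call of 4930471E19Rik in TRAP1 KO TCM (log2 fold change -1.10, adjusted p = 0.014) was lost without WT TCM replicate 3 (-1.03, adjusted p = 0.051) or TRAP1 KO TCM replicate 4 (-0.90, 0.057). Across all 210 members the changes had a Pearson r of 0.0021 and a Spearman rho of 0.067, given as a description across genes, which are not replicates. Gm34643 was at 5.03, 4.28, 3.13 and 5.56 CPM in TRAP1 KO TCM, against 7.47, 6.18 and 7.35 CPM in WT TCM (-0.64, SE 0.14, adjusted p = 8.1e-05), whereas Acod1 beside it rose by 0.65 (adjusted p = 2.1e-22).

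The difference between the genotype effects, TRAP1 minus JMJD3, was tested directly and called 27 members (12.9%) higher and 28 (13.3%) lower. Of the 14545 genes tested, 37.9% were called, 18.4% higher and 19.5% lower. 5031425F14Rik (-5.40), Gm26510 (-5.38), 9330104G04Rik (-4.10) and Gm26637 (-3.09) led the negative differences, with adjusted p of 4.3e-24, 4.9e-23, 2.9e-10 and 2.2e-19. In the JMJD3 comparison these 4 were not called. Gm29340 (1.99, adjusted p = 0.00015) led the positive ones beside 4930480K23Rik (2.30), whose difference was built into its selection, since it met the minimum through TRAP1 KO TCM alone. Gm29340 rose by 0.90 in TRAP1 KO TCM, a call that did not hold without WT TCM replicate 1 (0.63, adjusted p = 0.15) or TRAP1 KO TCM replicate 1 (0.78, 0.057), nor did its decrease in JMJD3 cKO TCM without replicate 1 of that group (-0.80, 0.064). Snhg6 (-1.09, adjusted p = 4.1e-09) and Norad (0.18, adjusted p = 1.7e-05) also differed between the genotypes. AW112010 fell in both and more so in JMJD3 cKO TCM (difference 0.42, SE 0.07, adjusted p = 3.0e-06).

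The 2 wild-type groups in conditioned medium differed most. Of the 210 members, 74 (35.2%) were higher and 37 (17.6%) lower in JMJD3 WT TCM than in WT TCM. By at least 2-fold, 37 were higher and 9 lower, and the median was 0.18. Over all 14545 genes tested, 61.3% were called, 30.0% higher and 31.3% lower, and 8.78% and 5.71% were higher and lower by at least 2-fold. Of 1417 coding genes of 1 to 5 CPM, 190 were higher and 224 lower by at least 2-fold. Of the 150 members in that range, 21 were higher and 8 lower by that much. With library totals alone the count over all members was 56 higher and 52 lower, and the median of all genes moved by -0.166. The groups did not overlap for 114 members, and for 64.2% of all genes. Line, culture and library set, and anything else that differed between the sets, cannot be told apart. Antisense genes (84 higher, 10 lower of 201) and genes of the class TEC (60 and 11 of 166) leaned the same way, as did the class processed transcript (37 and 24 of 117), and processed pseudogenes (49 and 96 of 393) the other. With library totals alone these counts were 59 and 15, 47 and 16, 28 and 33, and 33 and 161, so the lean of the processed transcripts turned. Without the 18 members that owe their place to a single group, 72 lincRNAs were higher and 33 lower. The 7 tested neutrophil markers and 2 of 3 tested dendritic cell markers were higher in JMJD3 WT TCM, and their part was not tested.

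AW112010 was at 334.5, 386.6 and 355.5 CPM in JMJD3 WT TCM, against 26.1, 27.2 and 28.7 CPM in WT TCM, and its change of 3.72 on the log2 scale (SE 0.05, adjusted p = 1.8e-48) was the largest of the 210. Malat1 was at 3523, 3388 and 3330 CPM in JMJD3 WT TCM, against 1974, 2143 and 1992 CPM in WT TCM (0.75, SE 0.05, adjusted p = 2.3e-08), and Neat1 was higher by 0.58 (SE 0.02, adjusted p = 1.4e-45). Gm11216 was at 12.8, 11.5 and 12.3 CPM in JMJD3 WT TCM and 1.26, 1.16 and 1.01 CPM in WT TCM (3.40, SE 0.19, adjusted p = 1.1e-30). Lncpint, a p53 target that gives rise to a growth-restraining RNA, was at 6.57, 6.10 and 6.64 CPM in JMJD3 WT TCM and 2.27, 2.81 and 2.28 CPM in WT TCM (1.39, SE 0.18, adjusted p = 6.9e-11). These ranges did not overlap, and Trp53cor1, the other of the 2 p53 and growth lincRNAs, was called higher too (0.47, adjusted p = 0.022). Trp53cor1 was not called without WT TCM replicate 1 (0.33, adjusted p = 0.16) or 3 (0.40, 0.087), without JMJD3 WT TCM replicate 1 (0.38, 0.11) or with library totals alone (0.30, 0.14). Pvt1 was at 2.66, 2.43 and 1.92 CPM in JMJD3 WT TCM and 4.09, 4.03 and 6.09 CPM in WT TCM, and was lower (SE of the log2 fold change 0.18, adjusted p = 1.6e-06), and Myc beside it changed by -2.01 (adjusted p = 1.5e-32). Gm14221 was at 0.805, 0.971 and 1.02 CPM in JMJD3 WT TCM and 2.88, 2.98 and 2.22 CPM in WT TCM (-1.54, SE 0.25, adjusted p = 1.2e-07).

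Mir142hg, the host of microRNAs typical of blood cells, was at 10.0, 11.7 and 9.71 CPM in JMJD3 WT TCM, against 7.12, 8.44 and 5.70 CPM in WT TCM, with no overlap (log2 fold change 0.55, SE 0.13, adjusted p = 7.9e-05). It was not called in the comparisons of medium, TRAP1 or JMJD3. Mir17hg was at 2.23, 2.15 and 1.92 CPM in JMJD3 WT TCM, against 2.93, 3.75 and 2.60 CPM in WT TCM (-0.56, SE 0.21, adjusted p = 0.016), and it was not called without WT TCM replicate 2 (-0.41, adjusted p = 0.13) or JMJD3 WT TCM replicate 3 (-0.50, 0.062). Dubr, a lincRNA of muscle and other differentiating cells, had its highest of all 16 libraries at 24.2 CPM in TRAP1 KO TCM. Dubr was at 22.9, 24.2, 23.3 and 23.9 CPM in that group, against 21.8, 20.9 and 21.3 CPM in WT TCM, with no overlap. Its log2 changes were 0.10 with conditioned medium, 0.15 without TRAP1 and -0.07 between the wild-type groups, and none passed the test (adjusted p = 0.29, 0.061 and 0.47). With library totals alone, Dubr was called higher without TRAP1 (0.16, adjusted p = 0.043) and lower between the wild-type groups (-0.23, adjusted p = 0.0058). Gm10076, a single-exon member of 384 bases, varied between replicates. It was at 9.20, 10.4 and 7.33 CPM in JMJD3 cKO TCM and 38.7, 22.3 and 14.5 CPM in JMJD3 WT TCM, and the ranges did not overlap but the change was not called (-1.50, SE 0.46, adjusted p = 0.076).

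**Figure D5:**
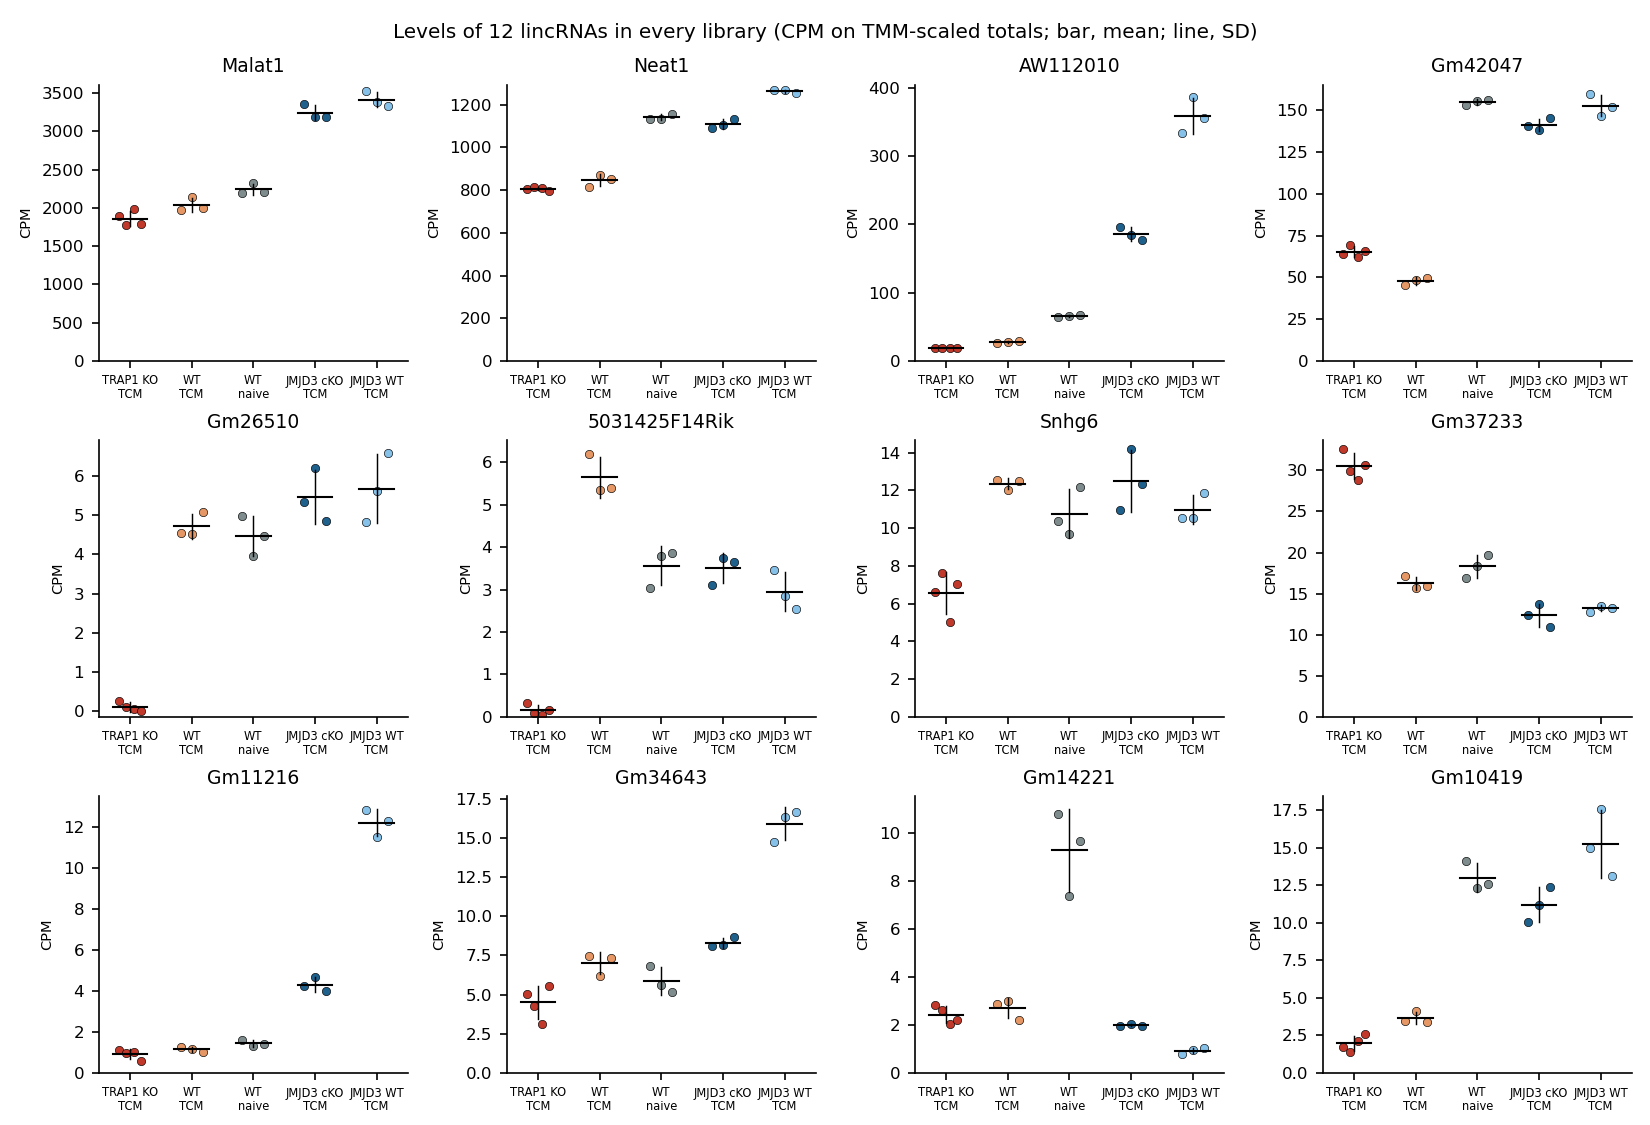
Level of 12 lincRNAs in each of the 16 libraries, in CPM on TMM-scaled totals (vertical), with the mean as a bar and the SD as a line. The vertical axis starts at 0, or just below 0 for Gm26510. AW112010 lies between 334.5 and 386.6 CPM in JMJD3 WT TCM and under 29 CPM in the TRAP1 KO TCM and WT TCM libraries, and Gm26510 and 5031425F14Rik lie under 0.33 CPM in the 4 TRAP1 KO TCM libraries only.

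Genes of the machinery that acts on these RNAs are given as counts beside the share of all genes called, which was 42.2% in TRAP1 KO TCM and in WT TCM relative to WT naive, 35.1% in JMJD3 cKO TCM and 61.3% between the wild-type groups. Of 12 paraspeckle protein genes, 2 rose and 3 fell in TRAP1 KO TCM, 3 rose and 4 fell in WT TCM relative to WT naive, and 1 rose and 1 fell in JMJD3 cKO TCM. Of 16 genes of the nuclear exosome, which degrades noncoding RNA, and its adaptors, 2 rose and 3 fell in TRAP1 KO TCM, 1 rose and 5 fell in WT TCM, and 3 rose and 1 fell in JMJD3 cKO TCM. Their called changes included Exosc9 at -0.40 in TRAP1 KO TCM (adjusted p = 7.9e-07) and Zfc3h1, an exosome adaptor, at -0.21 in JMJD3 cKO TCM (adjusted p = 4.4e-05). Of 7 tested genes of RNA end processing, 2 rose and 3 fell in TRAP1 KO TCM, 2 rose and 1 fell in WT TCM relative to WT naive, and 2 rose and 1 fell in JMJD3 cKO TCM. Between the wild-type groups, 3 paraspeckle genes were higher and 7 lower in JMJD3 WT TCM, 2 exosome genes were higher and 9 lower, and 3 end processing genes were higher and 3 lower, where 30.0% of all genes were higher and 31.3% lower.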

How the data were processed

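RNA sequencing libraries of bone-marrow-derived macrophages were deposited as 16 tables of whole-number counts per Ensembl gene, 1 per library, which the authors made from ribosomal-RNA-depleted RNA (Ribo-Zero) and a TruSeq Stranded kit, per the labels' protocols. The submitters' processing notes name mm10, HISAT, StringTie, Bowtie2 and RSEM without versions or roles. No source used here gives the counter, its strand setting or the annotation release. Library totals ran between 15361604 and 22426820 counts.

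Genes were matched by Ensembl identifier to GENCODE M21 (GRCm38), which held 54409 of 54532 identifiers. Printed levels are CPM on TMM-scaled totals of all 16 libraries, while membership used plain totals. Counts were tested with edgeR 4.0.16 (quasi-likelihood, TMM, filterByExpr with a minimum of 10, robust) in R 4.3.3 with limma 3.58.1, with p-values adjusted by Benjamini-Hochberg over all genes tested. WT TCM over WT naive and TRAP1 KO TCM over WT TCM came from 1 fit of 10 libraries, JMJD3 cKO TCM over JMJD3 WT TCM from a fit of 6, and the comparison of wild-type groups and the difference of genotype effects from a fit of 16. A change was called at an adjusted p under 0.05, and all 210 members were tested in every fit. The fit was tested on simulated data.

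The members and gene lists were chosen with earlier results of these data known. Genes named are the 8 highest members and, per comparison and direction, the 6 largest changes among called members whose groups do not overlap. Further names are members on lists headed nuclear body RNAs, small-RNA hosts, macrophage and inflammation lincRNAs and p53 and growth lincRNAs. The nearest expressed coding genes of all these members are named too. Not all of them are printed with values. Alternatives were other scaling, DESeq2 1.42.0, no filter on low counts, no robust option, other sets of libraries in the fit, a replicate block and leaving out each library. Same-numbered replicates did not deviate together (correlations of -0.028 to 0.020), so they were not treated as pairs. Replicates of a group differed by more than sampling noise in every pair.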

Additional observations from a re-analysis of the deposited data

Results flagged for a closer look

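In TRAP1 KO TCM, the 1 group with enough libraries to test for an outlying one, the lowest library stood apart from the other 3 for 3 of 56 named members, and chance flags about 1 in 20 such tests. Gm44751 had its lowest level there at 3.13 CPM, Gm15675 at 2.04 CPM and CT030636.1 at 1.19 CPM.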

How the results depend on the processing

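The number of members was 125 at a mean of at least 2 CPM and 302 at a mean of at least 0.5 CPM, against 210 at 1 CPM. Leaving out 1 library at a time gave 54 to 66 called members in TRAP1 KO TCM over WT TCM, 63 to 69 in WT TCM over WT naive, 29 to 43 in JMJD3 cKO TCM over JMJD3 WT TCM, 97 to 102 between the wild-type groups and 48 to 57 for the difference of genotype effects, and the other settings gave 54 to 68, 60 to 74, 32 to 42, 99 to 111 and 48 to 55. The count called higher in JMJD3 cKO TCM, 5 members, was 11 with library totals alone, 1 with DESeq2 and 1 to 6 without a library, with the lowest count without JMJD3 cKO TCM replicate 3. Malat1 in JMJD3 cKO TCM changed sign to 0.01 with library totals alone. The cause of these shifts was not tested. Of the changes called in TRAP1 KO TCM, 15 of 25 increases and 25 of 41 decreases held under every setting and without any library, against 20 of 27 and 30 of 43 in WT TCM over WT naive, 1 of 5 and 20 of 35 in JMJD3 cKO TCM, and 51 of 74 and 26 of 37 between the wild-type groups. With replicate number as a block, the counts were 60, 71, 40, 109 and 54 in the order above, and the numbers do not pair the libraries. Of all results recomputed, 2083 kept their direction and side of the threshold, 118 were no longer past it, 10 newly passed it and 1 changed sign. Depth limits the 150 members under 5 CPM.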
